A study of Macaca fascicularis and Macaca mulatta and Papio anubis with 20 samples.

Results

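In sections of Macaca fascicularis dorsal root ganglia (DRG), the clusters of sensory nerve cell bodies beside the spinal cord, 474 of 18594 eligible capture spots held at least 3 UMIs (unique molecular identifiers, each a counted molecule) of S100A8 and S100A9 together. These spots are called class A here, and the 16053 spots with 0 UMIs of both genes are called class B. The other 2067 spots held 1 or 2 UMIs. The assay was Visium: transcripts of a tissue section are captured on spots that each carry their own barcode, and molecules rather than reads are counted. Each spot mixes RNA of whatever cells or parts of cells lie over it. A spot was eligible if it lay under tissue and held at least 200 UMIs, and the whole series, with 2 other labelled species, had 22233 such spots. The members were thus chosen by their S100A8 and S100A9 UMI counts, whose values are given as a description and were not tested.

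The tissue was fresh frozen DRG bought from a supplier, with no treatment named in the labels and with at least 2 sections cut from each ganglion and stained with haematoxylin and eosin. Of 16 sections labelled M. fascicularis, 15 had their spots analysed here, under 4 title codes: a female and a male code in batch 1 and a female and a male code in batch 2. Sections that shared a title code were treated as 1 specimen, which the labels neither state nor contradict. P-values over specimens thus rest on these 4 codes, and each combination of sex and batch rests on 1 of them. Ages were not given. Class A and class B were compared in the 11 sections with at least 5 class A spots. These held 465 class A spots, of which 39 came from the batch 1 female, 10 from the batch 1 male, 81 from the batch 2 female and 335 from the batch 2 male. They also held 12721 class B spots. The sections held between 1136433 and 7073134 UMIs under tissue. Summed class A counts came to 49524, 28871, 281986 and 1390202 UMIs in that order of specimens, so the batch 1 values rest on few UMIs.

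S100A8 and S100A9 are small calcium-binding proteins that pair to form calprotectin, a major protein of the neutrophil cytoplasm that is also made by monocytes and by some activated macrophages and epithelia. Neutrophils, the most abundant granulocytes, make the proteins of their granules in the bone marrow as they mature. Transcripts for late granule proteins such as CAMP and LTF are therefore most abundant in maturing cells and low in cells that have left the marrow for the blood or a tissue. In the DRG, macrophages lie around the neurons and their satellite glia, while blood vessels run through the capsule and the sheath. In these summed spot counts, fewer cells of a type and less RNA per cell cannot be told apart.

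The share of eligible spots in class A separated the batch 2 male from the other specimens. In the batch 1 female the 4 sections had class A shares of 0.719%, 0.786%, 0.372% and 2.75%, a mean of 1.16% ± 1.08 (SD, n = 4 sections). The batch 1 male had 0%, 0.0699%, 0.445% and 0.349%, a mean of 0.216% ± 0.214 (n = 4), and its section at 0 of 1011 spots allows a share of up to 0.297%. In the batch 2 female the shares were 3.29%, 0.391%, 0.929% and 1.495%, a mean of 1.53% ± 1.26 (n = 4). The 3 batch 2 male sections stood at 10.1%, 8.35% and 12.4%, a mean of 10.3% ± 2.02. The lowest of these 3 sections lay above the highest of the other 12. The difference of the 2 females from the 2 males averaged -3.90 percentage points, and batch 2 averaged 5.22 points above batch 1. The sex difference had opposite signs in the batches, 0.940 points in batch 1 and -8.75 points in batch 2. With 1 specimen in each combination, sex, batch and specimen cannot be told apart, and the Space Ranger version recorded in the headers, 2.0.0 in batch 1 and 2.1.0 in batch 2, went with the batch.

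**Figure D1:**
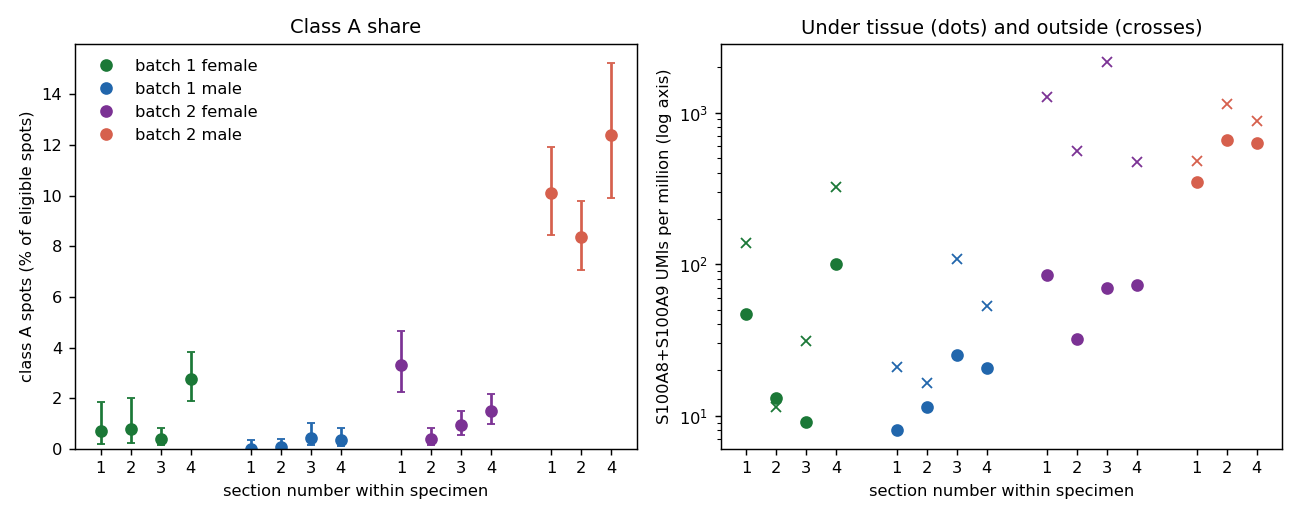
Left, share of eligible spots in class A (percent) in each of 15 sections, with exact (Clopper-Pearson) 95% intervals that cover counting error only; right, S100A8 plus S100A9 CPM on a log axis, under tissue (dots) and outside it (crosses). The 3 batch 2 male sections have shares from 8.35% to 12.4%, above the 12 other sections, and 14 of 15 crosses lie above their dots.

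Class A spots held from 3 to 61 UMIs of the gene pair. The 61 UMIs lay in a spot of batch 1 male section 4, and the highest spots of the other specimens held 30 UMIs in the batch 1 female, 29 in the batch 2 female and 43 in the batch 2 male. Just inside the threshold, spots with 3 UMIs numbered 54, 68 and 35 in the batch 2 male sections, while 115, 118 and 54 spots lay just outside it with 2 UMIs. In section 4 of the batch 1 female 6 spots held 3 UMIs and 16 held 2. Both transcripts were usually found together, in 31 of 33 class A spots of that section and in 86 of 123, 90 of 135 and 60 of 77 class A spots of the batch 2 male sections. They shared 5 of 5 and 4 of 5 in the compared batch 1 male sections and 27 of 31, 7 of 7, 14 of 16 and 19 of 27 in the batch 2 female. In section 3 of the batch 1 female they shared 2 of 6. S100A8 made up 59.0% to 73.9% of the pair's UMIs in the batch 2 male and 38.7% to 75.9% in the other 12 sections. In the 4 sections labelled M. mulatta or Papio anubis no spot was in class A, with 155, 165, 787 and 2532 eligible spots and upper limits of 1.94%, 1.82%, 0.381% and 0.118%. Their features come from other annotations, so these zeros are not set against the M. fascicularis values.

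The pair's level was also measured as CPM, its UMIs scaled to a total of 1000000. Under tissue it was 347, 658 and 629 CPM in the 3 batch 2 male sections and 8.01 to 100 CPM, with a median of 28.6 CPM, in the other 12. The batch 2 male section whose spots were not analysed here had 419 CPM of S100A8 and 310 CPM of S100A9 in the authors' deposited table, so all 4 of this specimen's sections were high. Outside the tissue outline the level was higher than under it in 14 of 15 sections, and it reached 2142 CPM in batch 2 female section 3, where the tissue had 69.8 CPM. Per 100 spots the order was the opposite in every section. The 12 sections of 3 specimens had 2.86 to 29.3 UMIs of the pair per 100 tissue spots and 0.114 to 7.29 per 100 outside spots, and the batch 2 male had 70.5 to 79.9 and 4.35 to 8.09. S100A8 and S100A9 transcripts thus took a larger part of the little RNA captured beside the tissue than of the RNA under it. SFRP4, a secreted Wnt-binding protein of connective tissue, was also higher in CPM outside tissue in 15 of 15 sections and NEFL, a neurofilament subunit of neurons, in 5 of 15. Among genes that were higher in class A, the unnamed feature ENSMFAG00000037799 was higher outside tissue in 15 of 15 sections, CAMP, of neutrophil granules, in 11, and LTF, of neutrophil granules too, and PTGDS, a prostaglandin synthase, in 10 each. CAMP had 0 to 209 CPM outside tissue, with a median of 16.2 CPM, and a median of 3.92 CPM under it. The part of RNA outside cells in the class A spots was not tested.

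Spot depth went with the level differently across specimens. From spots with fewer than 500 UMIs up to spots of 5000 UMIs or more, the pair fell from 799 to 10.5 CPM in the batch 1 female, from 73.7 to 5.88 CPM in the batch 1 male and from 297 to 24.5 CPM in the batch 2 female. In the batch 2 male it stayed between 425 and 684 CPM in all 5 depth ranges. There, the class A share rose with depth from 0.226% through 3.00%, 8.76% and 17.9% to 42.9%. The threshold is a count, so at the same CPM a deeper spot reaches it more often. The median class A spot was deeper than the median class B spot in the batch 2 male, with 4642 against 1225 UMIs, 2020 against 639 and 4679 against 513 in its 3 sections. In the batch 1 female it was shallower, with 1245 against 2213 and 570 against 1316 UMIs. Over the 4 specimens the log2 difference in median UMIs averaged 0.47 ± 1.47 (SD; 2 of 4 specimens above 0). When each spot of at least 500 UMIs was thinned to 500 UMIs, 16.3%, 26.4% and 24.0% of spots in the batch 2 male sections kept at least 1 UMI of the pair, against 0.522% to 6.37% in the other 12 sections, so the batch 2 male sections stood above the others at equal depth too.

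**Figure D2:**
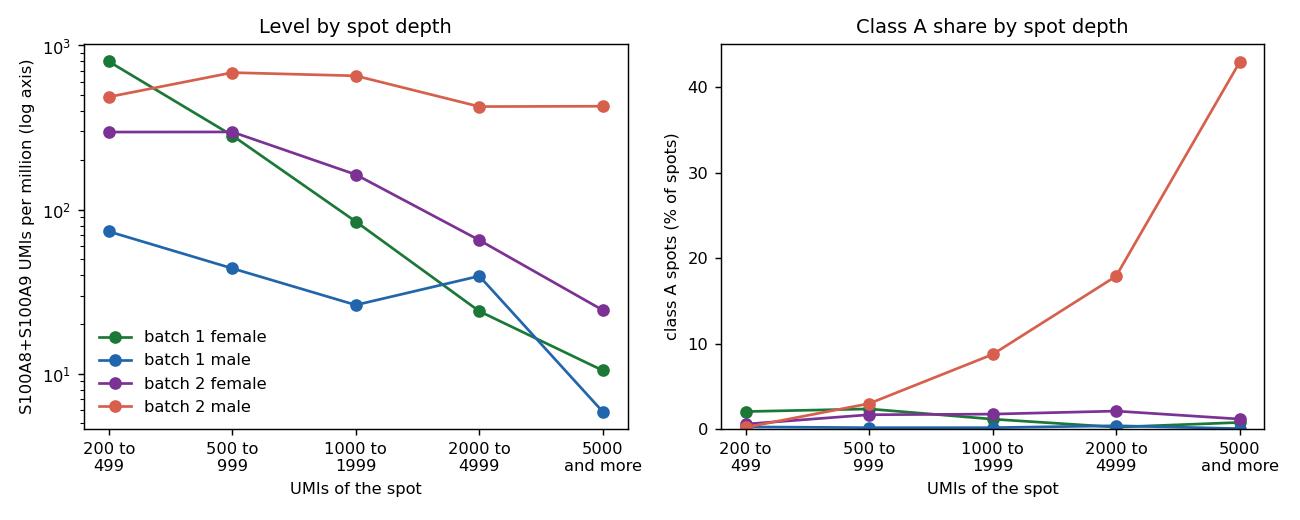
Left, S100A8 plus S100A9 CPM on a log axis against the UMIs of the spot in 5 ranges, for the eligible spots of each specimen summed; right, the percent of those spots in class A. The level falls with depth in the batch 1 female and batch 2 female and stays between 425 and 684 CPM in the batch 2 male, whose class A share reaches 42.9% in the deepest spots.

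The label of granulocyte spots was checked against granulocyte genes that the rule did not use, which were found in class A of 3 specimens and were at or near the class B level in the 3 analysed sections of the batch 2 male. CAMP, which encodes the antimicrobial peptide precursor cathelicidin of neutrophil granules, had 57 UMIs (1151 CPM) in class A and 44 UMIs (4.44 CPM) in class B of the batch 1 female. In the batch 1 male it had 45 UMIs (1559 CPM) against 44 (4.30 CPM), and in the batch 2 female 31 UMIs (110 CPM) against 32 (2.01 CPM). In the batch 2 male, with the largest class A sum, it had 2 UMIs (1.44 CPM) against 2 (0.830 CPM). The 3 analysed sections of that specimen had 0.311, 0.525 and 3.52 CPM of CAMP under tissue. Its section 3, where class A was not set, had 24 CAMP UMIs (11.8 CPM) in the authors' deposited table. CAMP was found in 21 of 39, 7 of 10, 14 of 81 and 2 of 335 class A spots of the 4 specimens, and in 1.56%, 1.67%, 0.571% and 0.0985% of class B spots. In class B spots paired to each class A spot by their UMIs, the spots with CAMP numbered 1, 0, 2 and 0.

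Other granule transcripts were also rare in class A of the batch 2 male. LTF, which encodes the iron-binding granule protein lactoferrin, was found in 12 of 39, 4 of 10 and 9 of 81 class A spots of the first 3 specimens and in 3 of 335 of the batch 2 male. BPI, an antibacterial protein of the primary neutrophil granules, had 13, 1 and 1 UMIs in class A of the first 3 specimens and 0 in the batch 2 male, where 0 of 335 spots allows a share of up to 0.896%. PGLYRP1, a bacterial cell wall-binding protein of granules, had 4, 2, 1 and 2 UMIs in class A. S100A12, a calgranulin that neutrophils make beside S100A8 and S100A9, had 3, 2, 7 and 2, and MMP9, a matrix-degrading enzyme of late granules, had 3, 1, 7 and 6. CPM values of these 4 genes in class A of the batch 2 male were at or near those of its class B, as the plot of granulocyte genes by specimen shows. In the whole list of secondary and tertiary granule genes, which also held BPI, 11 of 14 were annotated, and CRISP3, ARG1 and MMP8 were at 0 in class A of all 4 specimens. The list's summed level was 2060 against 158 CPM, 2563 against 247 CPM and 752 against 271 CPM in the first 3 specimens and 531 against 471 CPM in the batch 2 male. In both batch 2 specimens much of that sum was CHI3L1, a secreted glycoprotein that macrophages and other cells also make, with 482 CPM in class A of the female and 454 CPM in class A of the male.

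**Figure D3:**
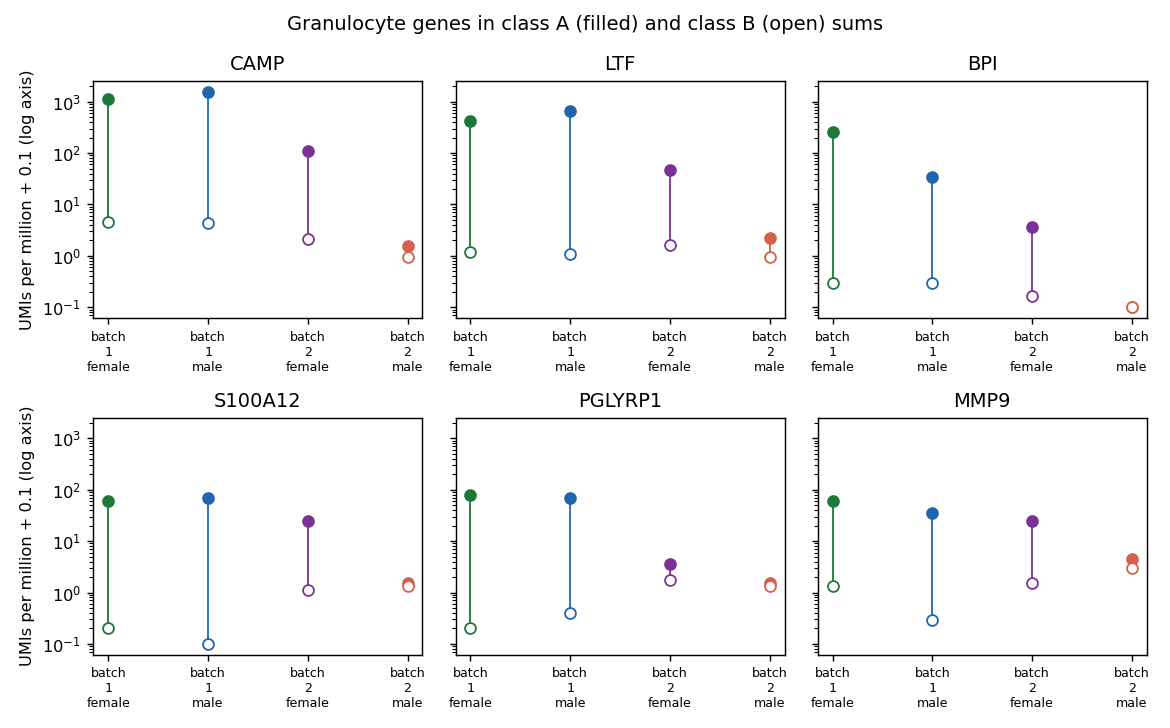
CPM plus 0.1 (log axis) of 6 granulocyte genes in the class A sum (filled) and class B sum (open) of each specimen; a point at 0.1 is a count of 0. CAMP lies between 110 and 1559 CPM in class A of 3 specimens and at 1.44 CPM in class A of the batch 2 male, and for BPI both of that specimen's points are at 0.

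Within the 3 specimens, CAMP rose with the S100A8 and S100A9 count of the spot. In spots with 0, with 1 or 2, with 3 to 5 and with 6 or more UMIs of the pair, CAMP stood at 4.44, 30.1, 291 and 5289 CPM in the batch 1 female, at 4.30, 17.6, 305 and 2583 CPM in the batch 1 male and at 2.01, 10.3, 47.1 and 300 CPM in the batch 2 female. The batch 2 male had 0.830, 0.839, 0 and 4.62 CPM. The spot with 61 UMIs of the pair held 18 CAMP and 9 LTF UMIs, whereas the batch 2 male spots with 33 and 43 UMIs held 0 of either. Genes of mature, circulating neutrophils, 24 of 32 of which were annotated, summed to 808 against 156 CPM, 485 against 118 CPM, 209 against 91.5 CPM and 179 against 130 CPM in class A and class B, higher in class A of all 4 specimens. These sums rest on 40, 14, 59 and 249 class A UMIs, and 5 of the 24 genes were at 0 in class A of all 4. The granulocyte growth factor receptor CSF3R had 1, 1, 1 and 4 class A UMIs, or 20.2, 34.6, 3.55 and 2.88 CPM against 1.11, 0.488, 2.44 and 1.66 CPM in class B. The chemokine receptors CXCR1 and CXCR2 and the adhesion molecule CEACAM8 had 0 class A UMIs, as did MPO and CTSG of the primary granules. A count of 0 in the class A sum allows up to 60.6, 104, 10.6 and 2.16 CPM in the 4 specimens, so a low level of these genes was not detectable in batch 1. The 12 annotated monocyte genes summed to 909 against 535 CPM, 1247 against 469 CPM, 326 against 249 CPM and 350 against 229 CPM, also higher in class A of all 4, although FCN1, a lectin of monocytes, had 0, 0, 1 and 0 UMIs. The part of monocytes in the class A spots was not tested. KRT5 of squamous epithelium, another source of calprotectin, and PPBP of platelets had 0 in all 4. Class A is therefore called by its rule below, and "granulocyte" is not used for the batch 2 male spots.

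The comparison of class A with class B asked which other genes go with S100A8 and S100A9 in a spot. Counts were summed by specimen and class, without S100A8 and S100A9, and tested with edgeR's quasi-likelihood test with the specimen as a block. In this fit and in that of 3 specimens below, edgeR estimated a spread shared over genes. A gene's own spread between specimens therefore did not enter its p-value, which can be small for a gene that is high in 1 specimen alone. Over 4 specimens, 18 genes rose and 2 fell of 9081 tested, or 0.220% of genes at an adjusted p (Benjamini-Hochberg) under 0.05, with 0.198% higher and 0.0220% lower. Of these, 11 of the 18 and both of the 2 passed the filter on low counts through class B alone; the other 7 needed their class A level to pass it. The filter on low counts left CAMP, LTF, BPI and S100A12 out of this fit. Without it CAMP rose by 7.10 and LTF by 6.96 (log2; adjusted p = 6.33e-115 and 2.96e-48), and the class A UMIs of CAMP behind this were the 57, 45 and 31 of the other 3 specimens and the 2 of the batch 2 male. Of the called genes with a symbol, 5 moved the same way in all 4 specimens, of which 4 are described here. ISLR, a marker of fibroblast-like stromal cells, rose by 1.95 (log2; SE 0.44, adjusted p = 0.00782) and was among those 7. IGFBP2, a binding protein of insulin-like growth factors, had 121, 797, 163 and 31.7 CPM in class A against 75.0, 66.5, 60.2 and 28.2 CPM in class B and rose by 1.31 (SE 0.24, adjusted p = 7.02e-05), although the batch 2 male values differ little. THBS1, the matrix glycoprotein thrombospondin, rose by 1.20 (SE 0.29, adjusted p = 0.0176), and DRP2, a protein of the myelinating Schwann cell, fell by 2.45 (SE 0.63, adjusted p = 0.0412). None of the 5 was also called when class B was matched to class A on UMIs, where 1 gene was called in all and 2 of the 5 were tested. The median log2 fold change of all tested genes was -0.07.

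The number of called genes turned on the batch 2 male. Without that specimen 58 genes rose and 13 fell of 10400 tested, or 0.683% (0.558% higher, 0.125% lower), and 17 of the 20 genes called over 4 specimens were among them. Without the batch 1 female, the batch 1 male or the batch 2 female 10, 9 and 4 genes were called. The following values are from the 3 specimens without the batch 2 male, a comparison whose details were chosen after the data were seen. Of the 58 higher genes 42 passed the filter on low counts through class B alone, as did all 13 lower genes. Genes that passed it through class A had to be high there, so no count is drawn from the granule and neutrophil lists. CAMP, which class B alone carried past the filter, averaged 940 ± 747 CPM in class A and 3.58 ± 1.37 CPM in class B (SD, n = 3 specimens) and rose by 7.26 (SE 0.30, adjusted p = 1.49e-125), and LTF, at 376 ± 309 against 1.20 ± 0.274 CPM, rose by 7.28 (SE 0.56, adjusted p = 1.62e-34). BPI rose by 8.46 and PGLYRP1 by 4.77, both on the few UMIs given above, and LTF, BPI and PGLYRP1 reached the filter's level in 0 of 3 class B sums. The lists were chosen with earlier results of these data known, so the list counts below are descriptions. The median log2 fold change of all tested genes was -0.16. Fitted rises of S100A12 (6.08), MMP9 (4.70) and the neutrophil-attracting chemokine CXCL8 (3.77, on 5, 0 and 2 class A UMIs) also needed class A to pass the filter. Against closely matched class B spots, whose UMIs lay within a ratio of 5 to 4 of those of their class A spot, CAMP still rose by 5.32 (adjusted p = 1.23e-25) and LTF by 5.30 (adjusted p = 3.96e-09), while BPI, PGLYRP1, S100A12, MMP9 and CXCL8 were no longer called.

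Some genes of connective tissue and vessels also rose in class A of these 3 specimens. Among fibroblast and sheath genes 5 of 13 tested members rose and 0 fell, or 3 of the 11 that passed the filter through class B alone, whose median log2 fold change was 1.45. With closely matched class B 2 of the 13 were called. IGFBP6, a growth factor-binding protein of sheath fibroblasts, had 2221, 3083 and 943 CPM in class A of the batch 1 female, batch 1 male and batch 2 female against 706, 636 and 392 CPM in class B, and rose by 1.45 (SE 0.25, adjusted p = 2.57e-06). SFRP4 had 1837, 1282 and 17.7 CPM against 200, 312 and 19.5 CPM, so it was higher in batch 1 and not in the batch 2 female, and its fitted rise was 1.85 (SE 0.28, adjusted p = 7.06e-08). FBLN1, a protein of elastic matrix, rose by 2.14, and the fibrillar collagen genes COL1A1 and COL3A1 by 1.30 and 1.45, the collagens with 0 class A UMIs in the batch 2 female. Of smooth muscle genes 2 of 9 rose, and 0 with closely matched class B: ACTA2, smooth muscle actin, at 283, 104 and 103 CPM against 53.8, 70.6 and 21.1 CPM, by 1.83 (SE 0.33, adjusted p = 1.85e-05), and TAGLN by 1.22. Of endothelial genes 1 of 11 rose, the clotting factor carrier VWF, at 121, 34.6 and 188 CPM against 47.5, 28.7 and 52.0 CPM, by 1.49 (SE 0.33, adjusted p = 0.00215). FABP4, a fatty acid-binding protein of capillary endothelium and fat cells, had 80.8, 69.3 and 199 CPM against 7.77, 15.8 and 10.97 CPM and rose by 3.61 (SE 0.38, adjusted p = 6.31e-18), while ADIPOQ, a hormone made by fat cells, had 0, 0 and 9 UMIs in class A. In spots with 3 to 5 and with 6 or more UMIs of the pair, VWF had 5 and 1 UMIs in the batch 1 female, 0 and 1 in the batch 1 male and 39 and 14 in the batch 2 female. FABP4 had 3 and 1, 1 and 1, and 36 and 20. The batch 1 levels of both genes thus rest on few UMIs. PTGDS, the prostaglandin D synthase of meningeal and glial cells, had 2908, 7828 and 489 CPM against 726, 746 and 262 CPM and rose by 1.83 (SE 0.26, adjusted p = 7.91e-10). CLDN11, a tight-junction protein of arachnoid and myelinating cells, rose by 2.60, and GJB6 and GJB2, gap-junction proteins also found in the meninges, by 3.72 and 3.16, all named after their values were seen. With class A from 5 UMIs of the pair, 7 sections of 3 specimens remained, the batch 2 male among them and the batch 1 male not. There the log2 differences of PTGDS and CLDN11 were -0.51 and -0.83, and neither was called. Among features with no symbol, ENSMFAG00000037799 had 2645, 381 and 117 CPM against 29.4, 44.0 and 4.07 CPM and rose by 4.86 (SE 0.31, adjusted p = 1.26e-52).

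Of 16 neuron genes tested in the same specimens 3 fell and 0 rose, with a median log2 fold change of -0.63. With closely matched class B 2 fell, 5 of the 16 lay above 0 and the median was -0.17. NEFL had 5270, 5196 and 5128 CPM in class A against 11139, 10412 and 7767 CPM in class B, with no overlap between the classes, and fell by 1.16 (SE 0.25, adjusted p = 0.00134). SNAP25, a protein of synaptic vesicle fusion, and NEFH, the heavy neurofilament subunit, fell by 1.10 and 1.01. Macrophage genes showed no called change, with 0 of 14 tested members past the threshold and a median of 0.18. CD163, a haemoglobin scavenger receptor of tissue macrophages, had 2, 0 and 66 class A UMIs, and C1QA, a complement subunit, 0, 2 and 35. Myelin genes (0 of 10) and satellite glia genes (0 of 10) had no called member. The monocyte list had 1 of 9 higher, THBS1, which many other cells make too, while CD14, the lipopolysaccharide co-receptor, stood at 162, 312 and 14.2 CPM against 82.8, 72.1 and 12.8 CPM (log2 difference 0.87, adjusted p = 0.636).

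Some of these genes rested on a single specimen or section. Skeletal muscle genes were called for 3 of 4 tested members, 2 of which passed the filter through class B alone, but the actin gene ACTA1 had 60 UMIs in 9 of 39 class A spots of the batch 1 female and 0 and 1 UMIs in the batch 1 male and batch 2 female. Without the batch 1 female the log2 fold changes of ACTA1, TNNT3 and TNNC2 were -0.41, -0.20 and -0.60. Red blood cell genes were likewise at 262 CPM in class A and 1.82 CPM in class B of the batch 1 female, with AHSP, a chaperone of haemoglobin, in 5 of its class A spots, and at 0 in class A of the other 3 specimens. The part of blood or muscle RNA in the other differences of the batch 1 female was not tested. Without section 4 of the batch 1 female, which gave 33 of its 39 class A spots, 23 genes were called, all higher, 20 of them also called with it. CAMP rose by 6.84, FABP4 by 3.79, PTGDS by 1.86, ACTA2 by 1.81 and BGN, a matrix proteoglycan, by 2.31 in that fit, while NEFL (adjusted p = 0.114), VWF (0.0536), SFRP4 (0.0536) and IGFBP6 (0.341) were not called. In that fit 3 granule genes were tested, against 6 with the section, and CAMP was the only granule gene called. Of the neutrophil list 7 were tested, against 11. The batch 1 female's section 3 held 0 class A UMIs of LTF, BPI, PGLYRP1, S100A12 and MMP9. Their absence from the called genes therefore does not show that they failed a test. Without section 4 of the batch 1 male 22 genes were called, all higher, and without the batch 2 female 190, of which 60 were higher and 130 lower. The close match on UMIs left 15 called genes, all 15 among the 71, with all 71 of the same sign. Beside CAMP and LTF these included FABP4, ACTA1, VWF, IGFBP2, SFRP4, PTGDS, IGFBP6 and GSN as higher and NEFL and NEFH as lower. PTGDS had 144, 226 and 138 class A UMIs in the batch 1 female, batch 1 male and batch 2 female. Class B matched on UMIs had 65, 15 and 206. For SFRP4 the UMIs were 91, 37 and 5 against 24, 19 and 10, and for ACTA1 60, 0 and 1 against 0, 0 and 4. These 3 genes were thus not higher in the batch 2 female.

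**Figure D4:**
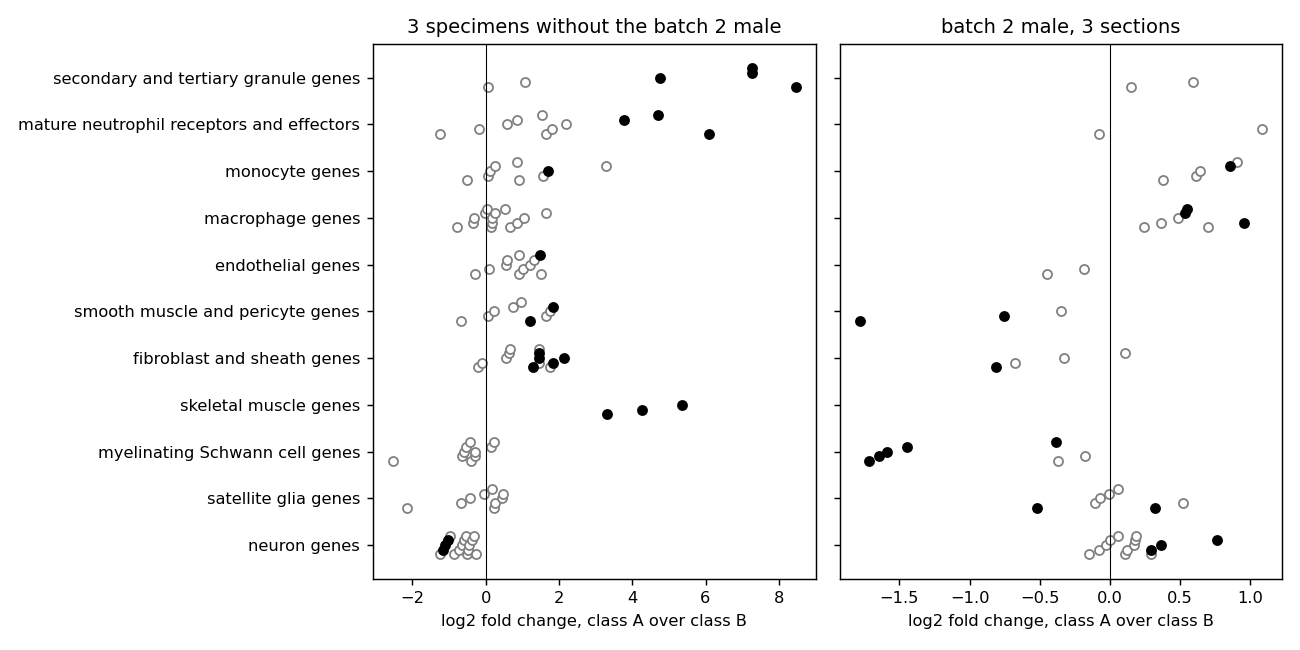
Log2 fold change of class A over class B for each tested gene of 11 lists, in the 3 specimens without the batch 2 male (left) and in the 3 sections of the batch 2 male (right); filled points passed edgeR's quasi-likelihood test at an adjusted p under 0.05, and genes with 0 UMIs in a class sum are left out. On the left the granule gene CAMP lies at 7.26, and on the right 5 myelin genes lie from -1.71 to -0.39.

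In the batch 2 male the class A spots differed from class B in other genes. With its 3 sections as samples and the section as a block, which measures spread within this specimen alone, 92 genes rose and 37 fell of 6459 tested, or 2.00% (1.42% higher, 0.573% lower). Macrophage genes were called in 3 of 7 tested members and in 2 of the 4 that passed the filter through class B alone, whose median log2 fold change was 0.54. CD163 had 282, 421 and 374 CPM in class A of sections 1, 2 and 4 against 195, 343 and 223 CPM in class B, higher in each section, and rose by 0.54 (SE 0.11, adjusted p = 0.00719). The complement subunits C1QC and C1QA rose by 0.55 and 0.95, and FCER1G, a signalling chain of Fc receptors in myeloid cells, by 0.86. CXCL10, an interferon-induced chemokine, had 345, 500 and 439 CPM against 239, 373 and 391 CPM and rose by 0.44 (SE 0.10, adjusted p = 0.0181). Neuron genes had 3 of 14 higher, among them the calcium-binding protein PVALB of proprioceptive and other large neurons, by 0.76, and NEFH, by 0.36. Myelin genes had 5 of 7 lower, and their called log2 fold changes ran from -1.71 to -0.39.

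Depth moved with this difference, since the class A spots of the batch 2 male were the deep ones, and matching changed part of it. Against closely matched class B spots, which kept 120 of 123, 128 of 135 and 41 of 77 class A spots, 39 genes rose and 2 fell, and 16 of the 129 genes first called remained called in the same direction. CD163 rose by 0.82 (adjusted p = 4.14e-05), C1QC by 0.73, FCER1G by 0.90, CXCL10 by 1.06 (adjusted p = 1.63e-09), PVALB by 0.72 and NEFH by 0.30. PRPH, an intermediate filament of small neurons, was called as lower, and the median of the 14 neuron genes went from 0.15, with 10 above 0, to -0.13, with 4 above 0. MAL, PRX, PMP2 and PMP22 of the myelin list were no longer called. Among the newly called genes, CCL2, a monocyte-attracting chemokine, and SERPINA3 and IFITM1 of the acute-phase and interferon list were higher. APOD and DCN, 2 of the 4 tested fibroblast and sheath genes, were also newly called as higher. C1QA, with a log2 difference of 1.20, was not called (adjusted p = 0.114). CD163, C1QC, FCER1G and CXCL10 were thus higher in class A of this specimen before and after matching, while these 4 myelin genes were called as lower before it and not after.

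A test of the difference itself compared the class effect in the batch 2 male with that in the other specimens, with sections as samples. The batch 2 male is 1 title code, so these p-values rest on sections, with a spread shared over genes, and cannot show a difference between specimens. Of 10400 genes, 222 had a higher and 50 a lower class effect in the batch 2 male, or 2.62% (2.13% and 0.481%). The class effect of CAMP differed by -6.42 (log2; SE 1.83, adjusted p = 0.0268), and those of S100A12, MMP9 and CXCL8 by -5.38, -3.93 and -3.28, of which CAMP, S100A12 and MMP9 had 2, 2 and 6 class A UMIs in the batch 2 male and CXCL8 had 44. LTF, at -4.94, missed the threshold (adjusted p = 0.0755). The genes tested were those past the filter on low counts in the 3 other specimens. LTF, S100A12, MMP9 and CXCL8 needed their class A level there to pass it, which favoured a lower class effect in the batch 2 male. The differences were -4.19 for ACTA2, -3.72 for FABP4, -2.87 for SFRP4 and -2.48 for PTGDS. The class effect of NEFL was higher by 1.43, and 6 of 16 neuron genes were higher. CD163 (0.48, adjusted p = 0.445) and C1QC (0.64, adjusted p = 0.200) were not called in this test, so a macrophage difference particular to the batch 2 male was not shown. With closely matched class B 3 genes were called, and none of the genes named in this paragraph was among them. Of the genes called in both within-group fits, 5 rose in the 3 specimens and fell in the batch 2 male (FOS, IGFBP6, PLA2G2A, PTGDS and TAGLN) and 3 did the opposite (NEFL, NEFH and BOLA3), so 0 of 8 had the same direction. With closely matched class B in the batch 2 male, NEFH alone of these 8 was still called. Of the 71 genes called in the 3 specimens, 35 were tested in the batch 2 male, and 7 of those had the same sign there.

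Class A spots lay next to each other and at tissue edges more often than other spots in most sections, though not in all. Among the neighbours of class A spots, 14.3% and 42.4% were class A in sections 3 and 4 of the batch 1 female, 8.70% and 16% in sections 3 and 4 of the batch 1 male, 10.2%, 0%, 2.82% and 1.57% in the 4 batch 2 female sections and 25.8%, 25.4% and 38.5% in the batch 2 male sections. Among the neighbours of other eligible spots the same shares were 0.269% and 1.28%, 0.346% and 0.264%, 2.47%, 0.457%, 0.785% and 1.33%, and 8.90%, 7.08% and 9.43%. The class A share was thus higher beside class A spots in 10 of 11 sections and all 4 specimens, by 15.9 ± 11.03 percentage points (SD, n = 4), a description of the values that chose the spots. After thinning to 500 UMIs, with any UMI of the pair counted, the difference was 10.6 ± 6.34 points over specimens. In the batch 2 male it shrank to 22.6% against 14.6%, 29.1% against 25.7% and 21.2% against 23.9% in its 3 sections. The largest group of touching class A spots held 10 spots in section 4 of the batch 1 female and 22, 12 and 24 in the batch 2 male sections.

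A spot was counted as at the edge if at least 1 of its 6 neighbours was not under tissue. In the batch 1 female 50.0% and 66.7% of class A spots were at the edge against 21.8% and 20.7% of class B spots, and in the batch 1 male 40.0% and 60.0% against 22.8% and 17.4%. In the batch 2 female the shares were 58.1%, 0%, 37.5% and 40.7% against 24.3%, 18.9%, 13.4% and 20.2%, and in the batch 2 male 26.0%, 27.4% and 51.9% against 28.1%, 22.6% and 31.2%. The difference averaged 22.4 ± 13.4 points and was above 0 in 9 of 11 sections (exact sign-flip p = 0.125, the smallest that 4 specimens allow). Against class B matched on UMIs it was 16.9 ± 5.35 points and above 0 in 8 of 11 sections. The map of batch 1 female section 4 shows class A spots in bands along the margins of its tissue pieces, and that of batch 2 male section 2 shows small patches in each of 4 pieces.

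**Figure D5:**
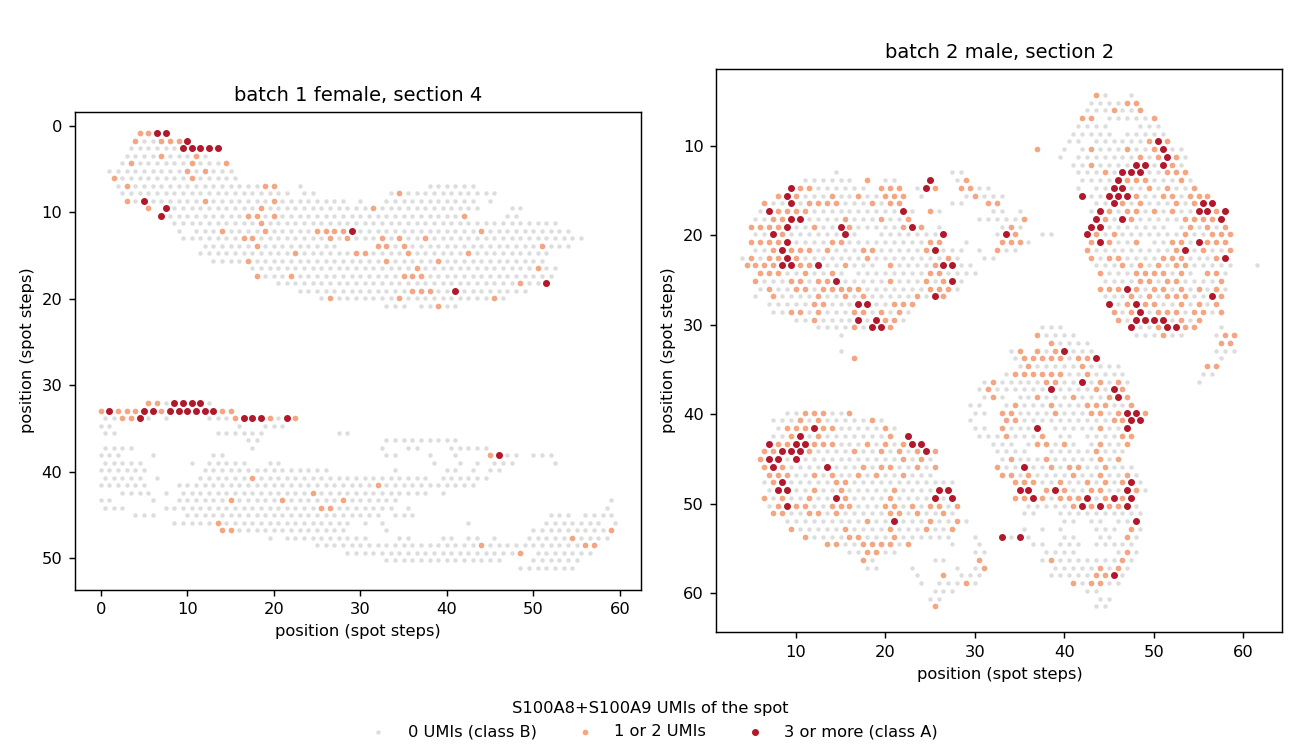
Positions of eligible spots, in spot steps, in section 4 of the batch 1 female (left) and section 2 of the batch 2 male (right), coloured by S100A8 plus S100A9 UMIs: grey for 0, orange for 1 or 2 and red for 3 or more (class A). The 33 class A spots on the left lie mostly along tissue margins, and the 135 on the right lie in patches over all tissue pieces.

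Moran's I scores the likeness of nearby spots in a gene's level and was given for each gene and section in the authors' deposited tables. For S100A8 it ran from 0.00410 to 0.259 with a median of 0.0428 over 16 sections, and it passed an adjusted p under 0.05 there in 11. For S100A9 it ran from -0.00190 to 0.223 and passed in 14, and for CAMP from -0.00635 to 0.192 and passed in 6. In the authors' deposited tables all 3 were highest in section 4 of the batch 1 female, where they ranked 25, 43 and 79 of 13999 listed genes.

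Class B spots that touched class A spots were compared with class B spots more than 2 steps from any, to see whether the surroundings differed. Over 4 specimens 776 spots beside class A and 10855 away from it gave 1 higher gene and 0 lower genes of 7827 tested, or 0.0128%, with 220 genes at an unadjusted p under 0.05 in edgeR's quasi-likelihood test and 1 gene called by DESeq2. The called gene was again ENSMFAG00000037799, at 305, 293, 6.35 and 2.40 CPM beside class A against 22.5, 35.8, 3.74 and 0 CPM away from it (specimens in the order above), a log2 difference of 3.02 (SE 0.34, adjusted p = 0.000109). It needed its level beside class A to pass the filter, and with sections as samples it was not tested. Without the batch 2 male 24 genes were higher and 1 lower. Among them PTGDS had 1162, 8046 and 319 CPM beside class A against 719, 664 and 256 CPM away from it and was higher by 1.43, CLDN11 by 2.03 and SFRP4 by 1.19. SFRP4 was at 20.1 against 19.1 CPM in the batch 2 female, and these 3 genes were named after their values were seen. CAMP was not tested there, with 3, 4 and 4 UMIs beside class A. Fibroblast and sheath (0 of 13), endothelial (0 of 6), macrophage (0 of 9) and myelin (0 of 10) genes had no called member over the 4 specimens.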

How the data were processed

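The authors deposited UMI counts per gene and spot as matrices made with Space Ranger, 2.0.0 in batch 1 and 2.1.0 in batch 2 of M. fascicularis per the file headers. The submitters' processing notes name the build Mmul_10, while the feature identifiers begin with ENSMFAG; 15068 of 22000 features carried a symbol. Moran's I scores and their p-values were computed and deposited by the authors and were only described. Members and gene lists were chosen with earlier results of these data known. Spots under tissue with at least 200 UMIs entered. M. fascicularis sections share 4976 spot barcodes, since slides carry a fixed barcode set, so spots were keyed by section. Counts were summed per specimen and class without S100A8 and S100A9, filtered with filterByExpr, scaled with TMM and tested with edgeR 4.0.16 (glmQLFTest, specimen as block) and Benjamini-Hochberg adjustment. Because class A and class B come from the same sections, the specimen block pairs them; section numbers of different specimens share only a number. The test was checked on simulated data. CPM are the UMIs of a gene scaled to 1000000 UMIs of a sum. Class B was matched on UMIs by nearest spot, and closely, within a ratio of 5 to 4. Edge shares were compared by an exact two-sided sign-flip test over specimens. DESeq2 1.42.0 and limma 3.58.1 were alternatives. Intervals and the limit from a count of 0 (3 counts) cover counting error only. Named were genes called over 4 specimens that moved the same way in each, called members of the lists and defining genes of each cell type; other genes were chosen after their values were seen, among them those of the comparison without the batch 2 male. No sequence is printed. Some genes that met the naming rule are not reported here. The spots of batch 2 male section 3 were not analysed here.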

Additional observations from a re-analysis of the deposited data

Results flagged for a closer look

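The class effect of 272 genes differed between the batch 2 male and the other specimens in the interaction test, which took sections as samples. On the log2 scale the difference, batch 2 male minus the others, was -6.42 for CAMP, -5.38 for S100A12, -3.93 for MMP9 and -3.28 for CXCL8 among granulocyte genes. It was -3.72 for FABP4, -4.19 for ACTA2, -5.33 for CLDN11, -2.48 for PTGDS, -2.87 for SFRP4 and -3.84 for BGN among genes of vessels, sheath and lining. None of these 10 was called with class B closely matched on UMIs, where 3 genes were. S100A12, MMP9 and CXCL8 passed the filter on low counts only with their class A level in the other specimens. This favoured a lower class effect of these genes in the batch 2 male.

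Spots outside the tissue outline, which no comparison used, had more S100A8 and S100A9 CPM than spots under tissue in 14 sections of 15. The highest such level was 2142 CPM in batch 2 female section 3. Of 15 groups of sections tested for a section far from the others, none was past Dixon's critical value, where about 1 in 20 groups passes by chance.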

How the results depend on the processing

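Over 4 specimens the 20 called genes became 1 with class B matched on UMIs, 6 with closely matched class B (UMIs within a ratio of 5 to 4), 6 and 1 with class A from 5 and from 10 UMIs, 10 in sections with 10 or more class A spots, 50 without the filter on low counts, 3 with DESeq2 and 0 with limma-voom, where 562 genes had an unadjusted p under 0.05. With sections as samples and the section as replicate block 13 genes were called, and with no replicate block 0 were, though 155 had an unadjusted p under 0.05. Without a specimen or section the count was 4 to 71. In the 3 specimens the 71 called genes became 15 with closely matched class B, 474 with the section as replicate block, 433 with limma-voom and 16 to 190 with a specimen or section left out. The split of 58 higher and 13 lower became 76 and 398 with that block, 415 and 18 with limma-voom, 60 and 130 without the batch 2 female and 50 and 76 without its section 1, so lower genes outnumbered higher ones in 3 of these 4. The 129 of the batch 2 male became 41 with closely matched class B and 65 to 147 with a section left out, and the 272 of the interaction became 3 with it. The 1 gene beside class A became 5 and 3 with class A from 2 and from 5 UMIs, 19 without the filter and 0 to 25 with a specimen left out; the section as replicate block gave 1 lower gene, ENSMFAG00000060511, a different one (-0.91). Reversed were CLDN11 (-0.83) and PTGDS (-0.51) with class A from 5 UMIs, PTGDS (-1.92) and AEBP1 (-0.70) from 10, ACTA1 (-0.41), TNNT3 (-0.20) and TNNC2 (-0.60) without the batch 1 female, TNNC2 (-0.65) without its section 4, and in the batch 2 male with closely matched class B GLUL (0.090), TAGLN (0.093), MAL (0.029), MYL9 (0.17) and PRX (0.039). With a specimen or section left out, ACTA1 ran from -0.41 to 8.05, TNNT3 from -0.20 to 6.13 and TNNC2 from -0.65 to 5.16. The log2 difference in median UMIs between the classes ran from -0.12, without the batch 2 male, to 0.97. Fewer spots or samples entered the matched and left-out fits. With class A from 5 or from 10 UMIs, and in sections with 10 or more class A spots, 3 specimens remained. Otherwise the cause was not tested. CAMP and LTF in the 3 specimens, and the differences in neighbour share and edge share, kept their sign under every alternative run that tested them. LTF was not among the called genes without section 4 of the batch 1 female, whose section 3 held 0 class A UMIs of it. edgeR's estimated prior degrees of freedom were infinite in the interaction fit and in the fits of class A against class B over specimens, so genes shared a common spread there. They were 18.3 in the fit beside class A and 24.2 in that of the batch 2 male. Batch 1 class A sums of at most 49524 UMIs limit what low genes can show.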
